A study of Drosophila melanogaster with 4 samples.

Results

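The regions described here are the H3K4me3-enriched regions of the X chromosome outside its centromere-proximal end, in the heads of adult fruit flies. They are the regions of the combined list, which the authors deposited for the set of both replicates, that lie on X with a score above 0 and start below position 20400000 of FlyBase release 5. There were 848 of them, of 4979 enriched regions in the whole list and 890 on X. The choice used chromosome, sign of the score and position only, so width, spacing and agreement between the replicates were free to vary.

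The chromatin came from heads sieved from wild-type Oregon-R-modENCODE flies (Drosophila melanogaster) of the stage labelled Mixed Adult, grown in population cages, and was precipitated with antibody ab8580, lot 2, against H3K4me3. The series held 4 samples, namely 2 ChIP replicates and 2 inputs, with no treatment and no second genotype. The labels do not give the sex of the flies, so the X copy number, and whether it was the same in both replicates, is not known. Its part in differences between X and the other arms, or between the replicates on X, was not tested. A head holds neurons, glia, eye, fat and muscle cells, so a region may belong to any of them. The authors deposited a region list for each replicate. The labels do not say whether separate cultures were used, so the spread between the replicates may be technical.

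H3K4me3 is histone H3 trimethylated at lysine 4, a modification laid down by COMPASS-type methyltransferases and found mostly over the starts of transcribed genes. The fly X is also the chromosome of dosage compensation: in males a complex of MSL proteins and roX RNAs binds along transcribed X genes and acetylates histone H4, and X output rises towards that of the X pair of females. These lists hold no measure of gene activity. Genes were not assigned to regions, because the gene table at hand is of Release 6, and no base sequence is printed because no genome of release 5 was used here.

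The X regions were set beside those of 2L, 3L and 3R, the left and right arms of large autosomes. On each of these arms the 2.02 Mb next to the centromere, the length that the position limit takes from X, was left out as well. This left 20.4 Mb of X, 21.0 Mb of 2L, 22.5 Mb of 3L and 25.9 Mb of 3R. With a single tissue and antibody, 2 samples give no test between chromosomes, and regions of a list are not replicates. Differences are therefore given with each replicate's value and set against the SD over the 2 replicates and the range over the 3 arms. That SD covers repeat calling and not the counting error of the regions. Depth is unknown, since read counts are no part of the lists.

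The position limit separated stretches of different density. Before it, X held 38.2 regions per Mb in replicate 1 and 38.8 in replicate 2, and beyond it 19.3 in each. The covered share beyond the limit was 6.90% in replicate 1 and 7.53% in replicate 2, and before it 15.3% and 16.2%. The last region inside the limit lay at 20392691 to 20396852, was 4162 bp wide, had a score of 2.32 and was found in both replicates. The first region outside lay at 20528005 to 20529516, was 1512 bp wide, had a score of 0.26 and was found in neither. The 2 depleted regions of the combined list were both on 2L. The lowest score among the X regions was 0.11.

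The number of regions per Mb on X lay within the range of the other arms. X carried 38.5 ± 0.416 regions per Mb (SD, n = 2), between 37.8 ± 0 on 3R and 38.7 ± 0.283 on 3L, while 2L carried 37.0 ± 0.270. Relative to the 3 arms together the ratio was 1.01 in replicate 1 and 1.03 in replicate 2. In the combined list X was the densest of the 4, with 41.6 regions per Mb against 38.7 on 2L, 40.5 on 3L and 39.4 on 3R. The combined list added more to X than to the other arms: it held 848 regions there, against 780 in replicate 1 and 792 in replicate 2. On 3L it held 913, against 866 and 875.

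The covered share of X was above that of each of the 3 arms in both replicates. Regions covered 15.3% of X in replicate 1 and 16.2% in replicate 2. The arms did not overlap these values: 2L had 13.7% and 13.5%, 3L had 14.2% and 14.1%, and 3R had 14.3% and 14.2%. The ratio of X to the 3 arms together was 1.12 ± 0.0530 (SD, n = 2), further from 1 than the spread between replicates. With similar numbers per Mb, the larger share went with wider regions. Median widths on X were 3331 bp (replicate 1) and 3426.5 bp (replicate 2). The nearest arm was 3R, with 3266 bp and 3258.5 bp, and 2L had the narrowest regions, with 2942 bp and 2940 bp. The ratio of the X median to that of the 3 arms together was 1.09 ± 0.0290.

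Sorting the regions by width showed that X had fewer regions of the commonest size and more of the wide ones. The class of 2 to 4 kb held 52.6% of the X regions in replicate 1 and 48.6% in replicate 2. On the other arms it held 57.9% to 62.7% over both replicates, so the values did not overlap. Regions of 10 kb or more made up 3.21% and 3.41% on X, against 2.43% and 2.46% on 2L, 1.39% and 1.14% on 3L, and 1.74% and 2.04% on 3R. These were 25 and 27 regions on X, so the shares rest on few of them.

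The class of 7 to 10 kb was also higher on X, and its values lay well apart. It held 40 X regions (5.13%) in replicate 1 and 61 (7.70%) in replicate 2. The highest share on another arm was 4.85%, from 42 regions on 3L in replicate 1. X was thus close to 3L in replicate 1, and above every arm by a clear margin only in replicate 2. The class of 4 to 7 kb held 28.6% and 28.9% on X, above the 26.9% and 26.6% of 3R, the next highest. In the combined list X was close to 3R and 3L in this class, with 27.7% against 27.5% and 26.7%, while 2L had 23.0%. Under 2 kb there were 10.5% and 11.4% on X. This class overlapped the other arms, which had 8.58% to 10.7%.

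**Figure D1:**
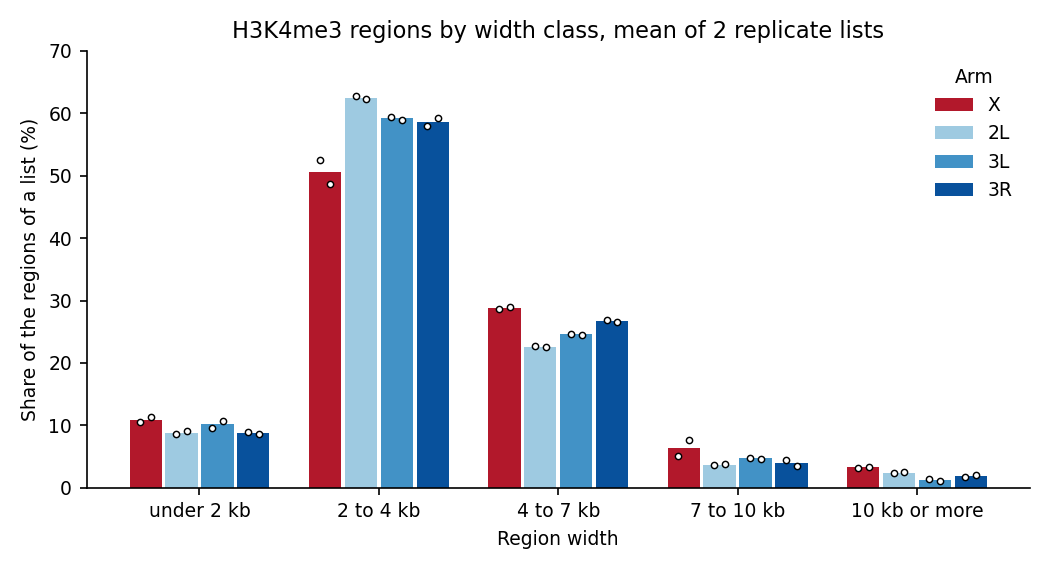
Share of the regions of a list (%) in 5 width classes for X, 2L, 3L and 3R; bars are means of the 2 replicate lists and white points the single replicates (replicate 1 left, replicate 2 right). X has the lowest bar at 2 to 4 kb (50.6%) and the highest at 10 kb or more (3.31%), and its points lie apart at 7 to 10 kb (5.13% and 7.70%).

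Among the 848 regions of the combined list, 130 were under 2 kb, 376 were 2 to 4 kb, 235 were 4 to 7 kb, 71 were 7 to 10 kb and 36 were 10 kb or more. The deposited score, the authors' own value per region on a scale that is not stated, rose with width up to the class of 4 to 7 kb and changed little beyond it. Its median was 0.42 under 2 kb, 1.46 at 2 to 4 kb, 2.19 at 4 to 7 kb, 2.22 at 7 to 10 kb and 2.34 at 10 kb or more. The 36 widest X regions stood at a median percentile of 81.0 among all scores of the list, so broad regions were also high-scored ones. The other arms shared this, with medians of 86.3 on 2L, 79.0 on 3L and 81.7 on 3R at 10 kb or more.

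The narrow X regions had higher scores than narrow regions elsewhere, in each of the 3 lists. Under 2 kb the median X score was 0.56 in replicate 1, with quartiles of 0.50 and 0.63. In the same list the medians were 0.45 on 2L, 0.41 on 3L and 0.44 on 3R. In replicate 2 the X median was 0.60, with quartiles of 0.53 and 0.66, while 2L, 3L and 3R had 0.41 each. There the lower quartile on X lay above the upper quartiles of the arms, which were 0.47, 0.46 and 0.47. The combined list gave 0.42 on X against 0.30, 0.28 and 0.29. Wider regions did not share this order: at 2 to 4 kb the combined median was 1.46 on X and 1.46 on 2L, below 1.70 on 3L and 1.74 on 3R. Over all widths the X median of 1.78 lay between those of 2L (1.67) and 3R (1.85).

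The spacing of the regions was broad on X and on the other arms. In the combined list the median gap from the end of an X region to the start of the next was 7120 bp, with quartiles of 2196.5 and 21516 bp, against medians of 8015 bp on 2L, 8657 bp on 3L and 8081.5 bp on 3R. The replicates did not give X a stable place in this order. Its median gap was 8669 bp in replicate 1, within the range of the arms (7765 to 9175 bp), and 7379 bp in replicate 2, below that range (7920 to 9175 bp). The SD of the gaps was 1.58 ± 0.0236 times their mean (n = 2), against 1.49 ± 0.00171 on 3L, 1.59 ± 0.0140 on 2L and 1.60 ± 0.00329 on 3R.

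By classes of gap, the combined X list had 80 gaps under 500 bp, 119 of 500 to 2000 bp, 154 of 2 to 5 kb, 265 of 5 to 20 kb, 127 of 20 to 50 kb and 102 of 50 kb or more. These 102 long gaps took up 9.36 Mb, or 45.9% of the X window. The other arms were near this, with 44.2% on 3L, 46.0% on 3R and 49.0% on 2L. Long unmarked stretches thus made up a like part of each arm. They are stretches without a called region, and how well reads could be aligned there is not known.

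**Figure D2:**
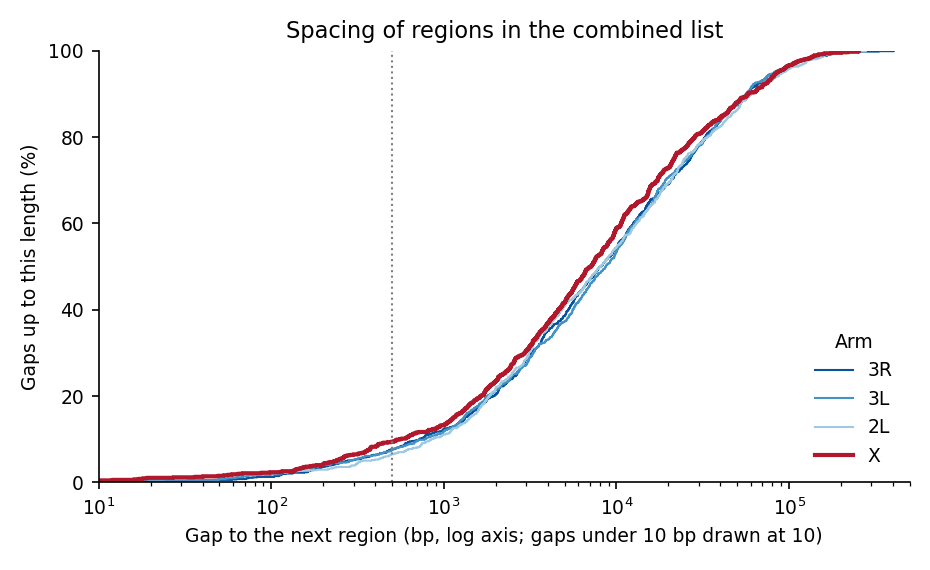
Cumulative share (%) of the gaps between neighbouring regions of the combined list against gap length (bp, log axis), 1 line per arm; the dotted line marks 500 bp. The X line runs above the others at 500 bp (9.45% of gaps, against 6.53% to 7.65%) and through the medians (7120 bp on X), and the lines meet near 50 kb.

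The longest gap between X regions ran from 14219379 to 14473714 and spanned 254336 bp. A second of nearly this length lay at 12103497 to 12354820 (251324 bp). Gaps of 219837, 200794 and 175029 bp began at 18825970, 13892553 and 190713. No region of either replicate lay wholly inside any of these 5 gaps. The regions that bounded them were of all sizes, from 1842 bp after the gap ending at 19045806 to 11705 bp after the gap ending at 365741. On the other arms the longest gap of the combined list was 279014 bp on 2L, 219821 bp on 3L and 404461 bp on 3R.

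Close neighbours were joined into chains, runs of regions with gaps under 500 bp. Gaps this short made up 7.45% and 8.34% of X gaps in replicates 1 and 2, compared with 6.28% and 6.61% on 2L, 6.94% and 7.09% on 3L, and 7.78% and 8.09% on 3R. X and 3R overlapped. The ratio of X to the 3 arms together was 1.10 ± 0.0599 (SD, n = 2). It was 1.30 in the combined list and fell to 0.956 when each list was reduced to its top 50% by score, so this excess was not stable.

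The combined list had 79 chains on X with 159 regions, and they were short: 78 held 2 regions and 1 held 3. Chains spanned 3354 to 21731 bp with a median of 8070 bp, and their inner gaps had a median of 224 bp. Inside chains the median width was 3725 bp and the median score 1.96, and outside them 3406 bp and 1.71. All members were found in both replicates in 55 of the 79 chains. Region by region, the share found in both was alike inside chains (84.3%) and outside them (85.1%). The other arms had 46 (2L), 60 (3L) and 72 (3R) chains in the combined list, of which 6, 7 and 6 held 3 or more regions. Chains held 19.6% of the covered bases on X there, against 14.25% to 16.6%. Over the replicates the mean was 15.8% on X, above 13.5% on 2L and 13.8% on 3L and below 17.0% on 3R.

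The single chain of 3 lay at 11259665 to 11270916, with regions of 6624, 3257 and 1069 bp. The next 4 by covered bases were pairs. The pair at 15736350 to 15758080 joined regions of 4370 and 17028 bp, and the pair at 8032602 to 8053396 regions of 16376 and 4392 bp. Regions of 13363 and 6602 bp stood together at 1765833 to 1786147, and regions of 17013 and 2604 bp at 15872871 to 15892735. Each of these pairs thus joined a broad domain to a smaller flanking one.

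Broad regions also stood near each other. X had 107 combined regions of 7 kb or more (12.6% of its regions, against 6.79% to 7.74% on the other arms). Of these, 39 (36.4%) had another such region within 20 kb, against 28.8% on 2L, 16.1% on 3L and 27.8% on 3R. In 17 cases 2 of them were direct neighbours, against 3 on 2L, 1 on 3L and 8 on 3R. A larger number of broad regions by itself brings them closer together, and its part in these counts was not tested.

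The density was uneven along the X, as along the other arms. In segments of 2 Mb the combined list had 34.5 to 45.5 regions per Mb, and the mean covered share of the replicates was 13.0% to 18.1%. In the 41 windows of 500 kb that make up these segments, which must range at least as widely, that mean share ranged from 4.82% to 36.2%, with a median of 15.7%, so the most covered window held 7.51 times the share of the least covered.

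The window at 15500001 to 16000000 stood out among those of X, with 35.4% in replicate 1 and 37.1% in replicate 2. The most covered window of 2L was near it, with 35.7% and 35.1%. It held 32 combined regions with a median width of 4994 bp, and 9 of them were 7 kb or more. The next was at 16000001 to 16500000, with 23.7% and 26.2%, 28 regions and 6 broad ones. The third was at 1500001 to 2000000, with 23.3% and 25.1% and 28 regions, of which 5 were broad. The first of these windows was above the next by far more than the replicates differed in either.

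The least covered window lay at 7000001 to 7500000, with 4.76% in replicate 1 and 4.89% in replicate 2. It held 7 regions and no broad one. At 3000001 to 3500000 the shares were 6.47% and 6.30%, with 10 regions. At 12000001 to 12500000, which holds the whole gap that begins at 12103497, they were 6.50% and 7.09%, with 9 regions. These 3 windows thus had few regions. Their median widths were 3137, 2702.5 and 3702 bp, against 3465.5 bp over all X regions of the combined list.

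On the finer scale of 204 windows of 100 kb (the last shorter by 1 bp), 12 held no combined region, 86 held 1 to 3, 81 held 4 to 7 and 25 held 8 or more. The most was 13. The variance of these counts was 1.74 ± 0.0170 times their mean over the replicates (SD, n = 2), against 1.80 ± 0.0369 on 3L, 1.84 ± 0.0364 on 3R and 1.97 ± 0.0247 on 2L. X was thus lowest of the 4 arms in the replicates, while in the combined list 3R was lower (1.72 against 1.74). Replicates 1 and 2 had the same count in 127 of the X windows and counts within 1 of each other in 190, with a largest difference of 3.

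The widest X region of the combined list lay at 15772409 to 15791460 and spanned 19052 bp. In replicate 2 it was 1 region of 19229 bp, and in replicate 1 it was 2 regions, the larger 14248 bp wide. The regions of 17028 bp from 15741053 and of 17013 bp from 15872871 were split in both replicates. The region at 11238436 to 11254875 (16440 bp) was continuous in both, and 15129 and 16383 bp wide there. The region at 8032602 to 8048977 (16376 bp) was whole in replicate 1 (14945 bp) and split in replicate 2, where the larger part was 9135 bp. Only the fourth of these 5 was thus found undivided in both replicates. Their scores, 2.09 to 2.58, lay above the X median of 1.78.

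The 5 highest-scored X regions were other ones. The score of 3.12 at 4820203 to 4821210 belonged to a region only 1008 bp wide that overlapped no region of either replicate. The other 4 were found once in each replicate, at 2501111 to 2505337 (2.91), 6903135 to 6909418 (2.90), 1758098 to 1764701 (2.88) and 9041420 to 9045317 (2.88). They were 3898 to 6604 bp wide.

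Agreement with the replicate lists was lower on X than on the other arms. Of the 848 X regions, 720 (84.9%, exact 95% interval 82.3 to 87.2%) overlapped a region of both replicates by at least 1 bp. The shares were 91.8% on 2L (89.7 to 93.6%), 92.2% on 3L (90.3 to 93.9%) and 90.9% on 3R (89.0 to 92.6%). The intervals cover counting error only. They treat the regions as independent, although all share the same 2 libraries, so they give no test between chromosomes. A further 25 X regions overlapped replicate 1 only, 44 replicate 2 only and 59 neither. When each list was reduced to its top 50% by score the X share was 86.8%, close to 87.3% on 2L, 89.6% on 3L and 89.4% on 3R.

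The X regions missing from a replicate were narrow. Those in neither replicate were 1337 bp wide at the median with a score of 0.46, and 28 of the 59 were narrower than the narrowest X region of either replicate, which was 1302 bp. The widest of the 59, of 2752, 2376 and 2003 bp, began at 9062324, 5488172 and 12672230. Their scores were 0.50, 0.63 and 0.51. For the 720 found in both the medians were 3878.5 bp and 1.94.

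Within width classes X still differed. Under 2 kb, 22 of 130 X regions (16.9%, 10.9 to 24.5%) were found in both replicates, against 27 of 89 on 2L (30.3%, 21.0 to 41.0%), 47 of 115 on 3L (40.9%, 31.8 to 50.4%) and 38 of 128 on 3R (29.7%, 21.9 to 38.4%). The X interval overlapped those of 2L and 3R. At 2 to 4 kb, 357 of 376 (94.9%, 92.2 to 96.9%) were found in both, against 99.0%, 99.4% and 99.4%. At 4 kb or more, 1 of 342 X regions was not found in both, and none on the other arms. Narrow regions were also a larger part of the combined list on X, 15.3% against 10.9% to 12.6%.

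**Figure D3:**
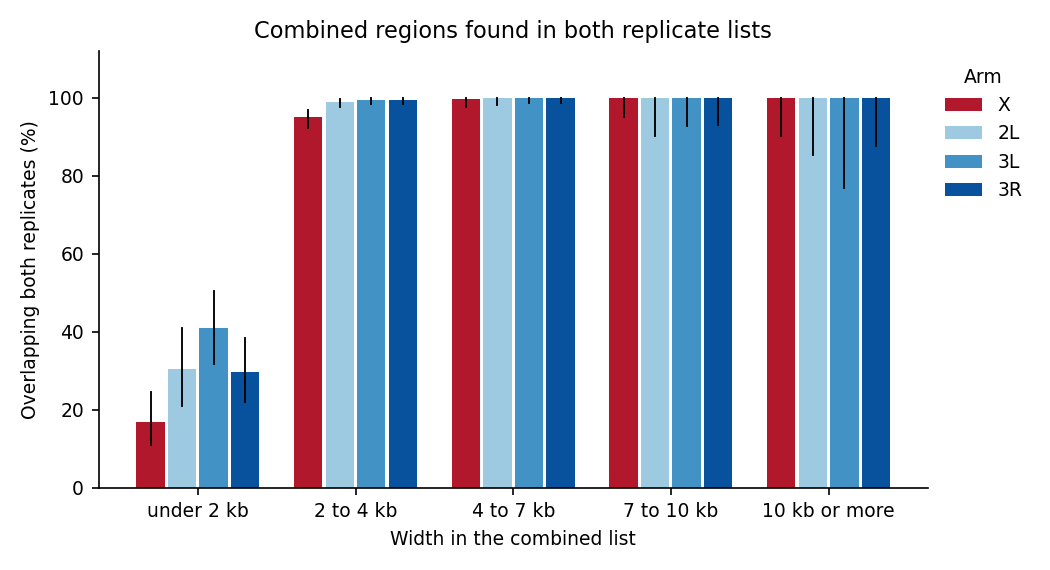
Share (%) of the regions of the combined list that overlap a region of both replicates, by width class, for X, 2L, 3L and 3R; lines are exact 95% intervals for counting error. Under 2 kb the X bar is lowest (16.9%), at 2 to 4 kb it is 94.9% against 99.0% to 99.4%, and above 4 kb all bars are at or near 100%.

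Combined regions on X more often spanned several regions of a replicate. Of the 848, 49 (5.78%) overlapped more than 1 region of at least 1 replicate, against 2.46% on 2L, 2.63% on 3L and 3.33% on 3R. Their median width was 8484 bp. Among regions of 10 kb or more, such overlaps were seen in 14 of 36 on X. The counts were 4 of 23 on 2L, 6 of 14 on 3L and 11 of 28 on 3R. At 7 to 10 kb there were 20 of 71 on X, against 6 of 36, 5 of 48 and 13 of 51. At 4 to 7 kb there were 14 of 235, against 9 of 187, 11 of 244 and 9 of 281. From 7 kb up X was thus close to 3R. Broad regions were also more common on X, and their part in the shares over all widths was not tested. In 23 of the 49, more than 1 region was overlapped in replicate 1 only, in 12 in replicate 2 only and in 13 in both. The remaining 1 overlapped 2 regions of replicate 2 and none of replicate 1. An overlap of 1 bp was enough here, so a replicate region lying mainly in a neighbouring combined region also counted. Replicate 1 had 36 gaps inside combined X regions, with a median of 174 bp and 29 under 500 bp. Replicate 2 had 25, with a median of 159 bp and 23 under 500 bp. Splits on X were thus mostly short breaks inside broad domains.

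Set against each other, the replicate lists shared less of X than of the other arms. The bases covered in both came to 3.03 Mb, or 88.9% of the 3.41 Mb covered in either, against 93.9% on 2L, 94.3% on 3L and 93.9% on 3R. On X replicate 2 covered 282 kb that replicate 1 did not, and replicate 1 covered 96.6 kb alone. The other arms had 71.7 to 101 kb in replicate 2 alone and 106 to 129 kb in replicate 1 alone. The bases of X marked in replicate 1 alone thus lay below the range of the arms, and those marked in replicate 2 alone were far above it.

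This difference was spread along the whole of X. Replicate 2 covered more than replicate 1 in 39 of the 41 windows of 500 kb, by a median of 0.692 percentage points and by up to 2.50 points at 16000001 to 16500000. The exceptions were the windows at 3000001 to 3500000 and 4000001 to 4500000, where the difference was -0.169 and -0.0708 points. On the other arms replicate 2 covered more in 15 of 42 windows of 2L, 15 of 46 of 3L and 18 of 52 of 3R, and the medians were -0.128, -0.0933 and -0.125 points.

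**Figure D4:**
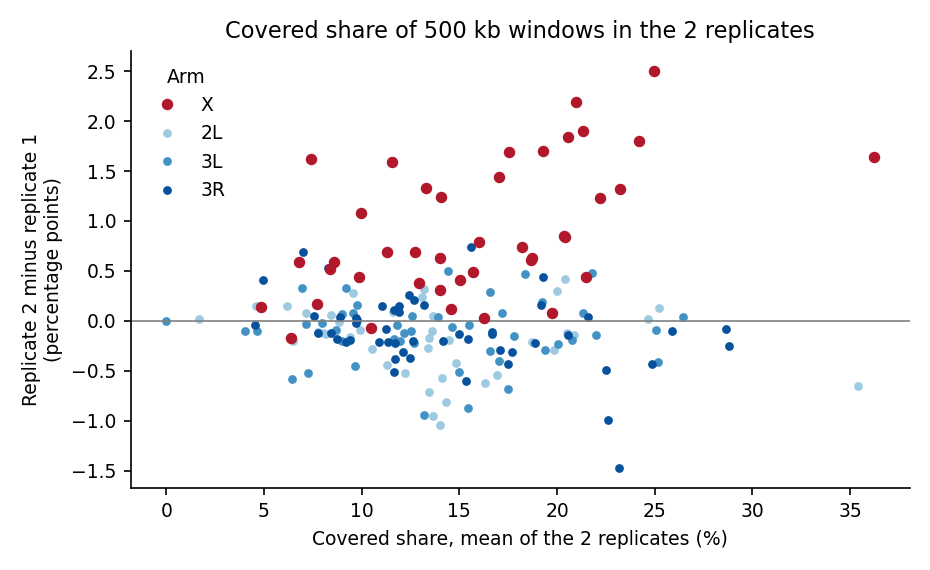
Difference in covered share (replicate 2 minus replicate 1, percentage points) against the mean covered share (%) of 500 kb windows, 1 point per window. The X windows lie above 0 in 39 of 41 cases and reach 2.50 points, while the windows of 2L, 3L and 3R scatter around a value just below 0.

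The edges of paired regions showed the same shift on both sides. Of 731 X pairs, each the other's largest overlap, 499 (68.3%) were wider in replicate 2, by a median of 90 bp (quartiles -31.5 and 301.5 bp). The median start lay 20 bp further out and the median end 25 bp further out in replicate 2. Both edges lay further out in 36.5% of the X pairs and further in in 13.4%. On the other arms both edges lay further out in 19.6% to 20.6% and further in in 30.5% to 32.6%.

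Without regard to direction, the X edges lay further apart as well, by distances that include this shift. The median distance between the starts of paired regions, without sign, was 60 bp on X and 36 to 43 bp on the other arms. For the ends it was 73 bp against 38.5 to 43 bp. The median width changes on 2L, 3L and 3R were -21, -17 and -14 bp.

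**Figure D5:**
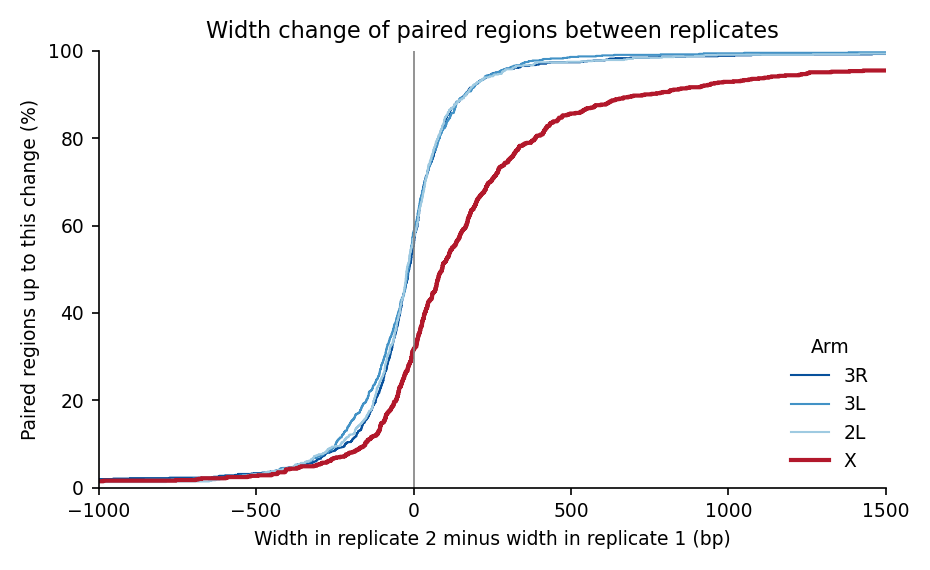
Cumulative share (%) of paired regions against the width in replicate 2 minus the width in replicate 1 (bp), 1 line per arm, with the far tails left out. The X line is shifted to the right of the 3 others along its upper part: its median is 90 bp and its upper quartile 301.5 bp, while the other medians lie between -21 and -14 bp.

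The shift was seen in every width class of X regions and in every segment of 2 Mb. The share of pairs wider in replicate 2 was 68.5% under 2 kb, 67.0% at 2 to 4 kb, 70.6% at 4 to 7 kb, 65.0% at 7 to 10 kb and 72.0% at 10 kb or more in replicate 1. The median change was 99.5 bp under 2 kb, 76 bp at 2 to 4 kb, 103 bp at 4 to 7 kb, 173 bp at 7 to 10 kb and 333 bp at 10 kb or more, where there were 25 pairs. As a share of the width it was largest under 2 kb, with a median of 6.23%, and 1.90% to 2.91% in the wider classes. Class was set by the width in replicate 1, which also enters the change. A region that came out narrow there by error would tend to be wider in replicate 2. The classes therefore cannot show whether narrow regions widened more, and the part of this selection was not tested.

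Across the 11 segments of X, the last of which is shorter, the share wider in replicate 2 ran from 59.5% at 14000001 to 16000000 to 74.0% at 1 to 2000000. The median change ran from 28 bp at 8000001 to 10000000 to 168.5 bp at 4000001 to 6000000. With the pairs cut at the quartiles of the replicate 1 score, the share wider rose from 63.9% in the lowest group to 76.5% in the highest. Their median changes were 73 bp and 147 bp. No segment, width class or score group of X had a median below 0. On the other arms the score groups had median changes from -34 to -2 bp, but not all width classes did. Under 2 kb the median change was 61 bp on 3L, with 60.9% of pairs wider in replicate 2, and 51.5 bp on 3R, with 56.5% wider. It was 9 bp on 3R at 10 kb or more. The other width classes of these arms had medians below 0. Regions under 2 kb in replicate 1 were thus wider in replicate 2 at the median on 3L and 3R as well as on X. The limit of cutting by the replicate 1 width holds here too.

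Large changes were part of this and not the whole. Replicate 2 exceeded replicate 1 by over 1000 bp in 52 X pairs, and fell short by as much in 11. Of the 52, 22 spanned 2 or more replicate 1 regions, so that neighbours separate in replicate 1 were a single region in replicate 2. The other 30 matched 1 region. The 52 were found in 10 of the 11 segments. Among the 668 pairs that changed by at most 1000 bp, 66.9% were still wider in replicate 2, by a median of 75 bp.

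Of the 5 largest changes, 4 were gains in replicate 2 at places where 2 replicate 1 regions became 1. At 15687597 to 15700982 the replicate 2 region was 13386 bp wide, against 7644 bp for its partner in replicate 1. At 16265375 to 16275487 the widths were 10113 and 4638 bp, and at 6180255 to 6192161 they were 11907 and 6882 bp. The widest X region, described above, gained 4981 bp in this way. The largest change of all went the other way: at 8033929 a region of 14945 bp in replicate 1 was 9135 bp in replicate 2, which had a second region beside it.

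The order of the X regions was nevertheless shared. Over the 731 pairs the Spearman correlation between the replicates was 0.96 for width and 0.97 for score, against 0.97 to 0.98 and 0.98 on the other arms. These are given as descriptions over regions that share 2 libraries. Of the X regions of replicate 1, 754 of 780 (96.7%) overlapped a region of replicate 2, and of those of replicate 2, 741 of 792 (93.6%) overlapped a region of replicate 1. The second share was the lower one only on X and, by a smaller margin, on 3L. Its values on the other arms were 98.2% on 2L, 98.2% on 3L and 97.8% on 3R. Regions of replicate 2 with no counterpart numbered 51 on X, against 14, 16 and 22.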

How the data were processed

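The submitters' processing notes name Bowtie 0.12.7 as a tool. Enriched regions were deposited by the authors for each ChIP replicate and for the set of both, with positions in FlyBase release 5, per the file headers. The score of each region is the authors' deposited value, and no source used here gives its scale or log base. Also not given are the region caller, its threshold and how replicates were combined, all of which can change widths and numbers. The lists give no read counts, so depth is unknown. The inputs served the authors as controls, per the labels, and no input values were used here.

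Regions were assigned to a window by their start. Gaps are the bases between neighbours, and chains join gaps under 500 bp. An overlap needed at least 1 bp. Replicate values are given as mean and SD (n = 2). Exact (Clopper-Pearson) 95% intervals cover counting error only. The interval arithmetic was tested on simulated data. No test across regions was made. Named regions were the 5 widest, the 5 highest-scored, the 5 largest chains, the 5 longest gaps, the 5 largest width changes, the 3 widest regions in neither replicate, the 3 most and 3 least covered windows of 500 kb, and the regions beside the position limit. The regions described and the lists were chosen with earlier results of these data known. Comparing narrow regions by score and broad regions by distance was chosen after the data were seen. Alternatives were the top 50% by score, the combined list, whole comparison arms, joined neighbours, a reciprocal overlap of 50%, a gap limit of 1000 bp, windows of 200 kb and each replicate alone. Python 3.11.15, numpy 2.4.6, pandas 2.3.3, scipy 1.17.1 and matplotlib 3.10.9 were used.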

Additional observations from a re-analysis of the deposited data

How the results depend on the processing

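No paired analysis was possible because the inputs, which share replicate numbers with the ChIP samples, have no region lists of their own here. For regions per Mb on X relative to the 3 arms (1.02), the ratio was 1.05 with the top 50% by score, 1.05 in the combined list and 1.04 with whole comparison arms. The covered share ratio (1.12) was 1.19 with the top 50%. The ratio for gaps under 500 bp (1.10) turned to 0.956 with the top 50% and was 1.30 in the combined list. With the top 50%, the combined list and joined neighbours in turn, the X share at 2 to 4 kb (50.6%) was 38.9%, 44.3% and 46.8%, at 4 to 7 kb (28.8%) 44.1%, 27.7% and 28.0%, at 7 to 10 kb (6.42%) 11.3%, 8.37% and 9.73%, and at 10 kb or more (3.31%) 5.76%, 4.25% and 5.04%. Under 2 kb (10.9%) it was 0.0% with the top 50% and 15.3% in the combined list. The share of covered X bases in chains (15.8%) was 11.1% with the top 50%, 19.6% in the combined list and 24.8% with a gap limit of 1000 bp. The variance to mean ratio (1.74) was 1.54 after joining and 2.07 in windows of 200 kb. Bases shared by the replicates (88.9%) were 84.5% with the top 50%, against 90.2% to 91.5% on the other arms, and 89.0% after joining. Selecting or joining regions changes widths and gaps by construction, and beyond that the cause was not tested. The ratio of median gaps was 1.01 in replicate 1 and 0.861 in replicate 2, so its direction rests on the replicate. The share of bases shared needs both replicates and has no value without either. The median width ratio moved by less than its SD over the replicates under all the alternatives run. The share of X regions found in both replicates (84.9%) stayed inside its counting interval. It was 83.6% with a reciprocal overlap of 50%, against 90.4% to 92.0% on the other arms. After joining it was 86.5%, against 92.0% to 93.1%. With the top 50% it was 86.8%, against 87.3% to 89.6%, so the difference from the other arms was smaller there.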
